A study of Mus musculus with 12 samples.

Results

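The regions described here are promoter regions that held BMAL1 peaks and neither a canonical E-box nor an AP-1 motif. They were chosen by the peak calls themselves and by the sequence under them: any peaks of the 6 BMAL1-ChIP-seq libraries that shared 1 bp or more became a single region, and such a region was kept when it was called in at least 2 libraries, when its midpoint lay within 1000 bp of the start site of a protein-coding gene, and when neither CACGTG nor the AP-1 motif (TGA, then C or G, then TCA) lay between its borders. Of 16818 merged regions, 7452 were called in at least 2 libraries and 2937 of these lay at promoters. The rule left 1722 regions, against 1085 promoter regions with an E-box and 130 with an AP-1 motif and no E-box.

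Chromatin came from primary mouse adult fibroblasts (MAFs). The senescent group had received X-rays (20 Gy), the control group a mock irradiation, and both groups received a pulse of 100 nM dexamethasone, which aligns the clocks of cultured cells, and were collected 12 hours after it. Each group held 3 BMAL1-ChIP-seq libraries, and the 6 input libraries of the series were not analysed here. The labels do not say whether replicates came from separate animals or cultures, so the tests measure the spread between libraries, which may be technical.

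BMAL1 pairs with CLOCK, and the dimer is best known for binding the E-box CACGTG and driving the Period and Cryptochrome genes, whose products feed back on it. Promoters of widely expressed genes are often rich in CpG and carry sites of general promoter factors such as NF-Y, which binds the CCAAT box, and SP/KLF proteins, which bind GC boxes. ChIP-seq of a factor can recover places where it touches DNA through a weaker form of its motif, through a partner, or through accessible chromatin, and a peak list does not separate these.

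Of the 10 best-ranked members called in all 6 libraries, the 8 shown here carried sequences 1 base away from the E-box. Ndufs7 held none of the 4 variants described below, and the sequence of the Lox region is not shown. The windows are printed because no member can hold CACGTG, and promoter regions that do hold it carried the same 4 variants about as often (36.4% against 35.9% of members). Both shares count matches within 100 bp of the peak centre. The matches printed for Per2, Cry2 and Per3 lay outside that window, since their peak centres were 209, -359 and 371 bp from the start site. Their regions were also wide, at 2436, 1492 and 2238 bp. A wide region holds such a match more readily, and the number that width alone would give was not computed for any region. Positions are counted from 1 at the 5′ end of CACGTG, and a token such as C1A gives the base of CACGTG, its position and the base of the variant. Each line gives 30 bases of the plus strand of GRCm38 (mm10), with the match in capitals and its centre relative to the start site of the gene, negative upstream.
Per2, chr1:91459302-91459331, AACGTG (C1A), centred 7.5 bp from the start site: cacatagtggaaAACGTGaccgcgcgcgct
Cry2, chr2:92434218-92434247, C1A on the minus strand, at -189.5 bp: gctccgccccctCACGTTcccaccatgtgt
Per3, chr4:151044753-151044782, A2T on the minus strand, at -102.5 bp: tgttaccggcaaCACGAGctcccattggtc
Txnip, chr3:96557893-96557922, CGCGTG (A2G), at -49.5 bp: caggccagcactCGCGTGgagcgccaagcc
Ddx50, chr10:62651535-62651564, CTCGTG (A2T), at -331.5 bp: gcgacgcagcggCTCGTGggcaagcacgag
Fam76a, chr4:132922635-132922664, C1A, at -91.5 bp: gggagggggcggAACGTGgagttcccgacg
Mapk6, chr9:75410092-75410121, A2G on the minus strand, at -101.5 bp: gccggggagccgCACGCGccggaatttcca
Ccdc85b, chr19:5457573-5457602, A2T, at -83.5 bp: ccggggcggggcCTCGTGatgttgcccaag
Several windows held a further match outside the capitals. The Cry2 window went on into catgtg, a C3T variant read on the plus strand, and the Ddx50 window ended in cacgag, a further A2T variant on the minus strand.

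A second kind of sequence, the CCAAT box of NF-Y, was the most frequent single motif of the panel near the centres of these peaks, and the following windows show it at members without a nearby E-box variant or with several CCAAT boxes. Hsp90b1 is the endoplasmic reticulum chaperone whose start site shares its region with Ttc41, Hnrnpl is a splicing factor and Vim is the fibroblast intermediate filament vimentin.
Hsp90b1 and Ttc41, chr10:86705666-86705695, plus strand, at -131 bp from the Ttc41 start site: gcggctttcctCCAATCAgatggctccgcg
Hnrnpl, chr7:28810549-28810578, plus strand, at -327 bp: tagctaggaaaCCAATGAgagcgggaagga
Vim, chr2:13574204-13574233, minus strand, at -63 bp: tttccgggtccCCATTGGctggctcgctcg
The Hsp90b1 and Ttc41 region held 6 such matches and the Hnrnpl region 4. A match to letters describes the sequence and does not show that a factor was bound there.

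The regions were short and sat just upstream of start sites. Their median width was 306 bp (interquartile range 233 to 417), against 467 bp for promoter regions with an E-box. The median midpoint lay 80.5 bp upstream of the nearest start site (interquartile range from 161 bp to 1.5 bp upstream), 1349 regions (78.3%) lay within 250 bp of it, and 1299 (75.4%) were upstream. By the annotation, 1053 midpoints fell outside protein-coding transcripts, 389 in an exon and 280 in an intron. Start sites on both strands lay within 1000 bp of the midpoint in 236 regions (13.7%, 95% Wilson interval 12.2 to 15.4), compared with 11.2% (9.50 to 13.3) of the promoter regions with an E-box. A single region of 6490 bp lay on the mitochondrial genome, 3 lay on the X chromosome, and the rest were autosomal. In the 200 bp around the start site, the members had a median GC content of 65% and an observed-to-expected CpG ratio of 0.870, and 84.0% were CpG-rich (GC over 50% and a ratio over 0.6). The E-box promoters were alike, with 67%, 0.886 and 87.2%, whereas the 17017 protein-coding promoters at which no library had a peak had 57%, 0.473 and 40.2%.

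Whether a promoter region fell in the set depended on its width. Of promoter regions under 200 bp wide, 84.6% lacked both motifs, and of those of 600 bp or more, 26.3% did. The borders rarely decided membership, since an E-box lay within 100 bp outside the border in 61 members (3.54%). It lay between 100 and 200 bp away in 68 and between 200 and 300 bp in 66, so the number per 100 bp was nearly flat. Of the 837 members called in 2 libraries, at the inner edge of the rule, the median of the mean rank was 58.5% of the list, and for the 2361 regions of the same kind called in 1 library, just outside it, it was 67.4%. At the distance limit, 33 members lay in the last 100 bp inside it and 25 regions in the first 100 bp outside it.

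The 6 lists differed in length, and the number of members called followed them. The control lists held 2794, 3349 and 10601 peaks for replicates 1, 2 and 3, and the senescent lists held 4220, 9805 and 5053. Members were called 320, 488 and 1387 times in the control libraries and 633, 1530 and 814 times in the senescent libraries. The longest list of each group, control replicate 3 and senescent replicate 2, therefore called 80.5% and 88.9% of the members. Called in these 2 libraries and in no other were 461 members (26.8%), beside 12.7% of all regions called in at least 2 libraries. The same share was 5.35% of promoter regions with an E-box and 8.93% of regions away from promoters. Read depth is unknown, because peak lists carry no reads, and a region missing from a list may still have been bound.

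To compare groups without the length of the list, members were taken as a share of all promoter regions called in the same library. The share was 40.1%, 49.0% and 60.4% in the control libraries and 40.8%, 56.9% and 46.0% in the senescent libraries. The groups overlapped, and the means of 49.8% ± 10.2 (SD, n = 3) and 47.9% ± 8.23 differed by -1.90 percentage points (two-sided exact permutation p = 0.8, where 3 against 3 libraries allow no p below 0.1). The direction was set by single libraries. It turned to 1.84 without control replicate 3 and, separately, to 1.84 without senescent replicate 1, and it was -8.33 when every list was shortened to the same number of peaks (exact permutation p = 0.1).

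Members stood lower in every list than promoter regions with an E-box. Peaks were ranked by score within their library, from 0% for the best score to 100% for the weakest. The median rank of the members was 56.6%, 53.2% and 38.3% in the control libraries and 58.7%, 43.2% and 56.5% in the senescent libraries, and that of the E-box promoters was 33.9%, 32.7% and 21.3%, then 33.2%, 17.3% and 29.2%. The difference was 16.9 to 27.4 percentage points and in the same direction in 6 of 6 libraries (mean 23.2, exact two-sided sign-flip permutation test over libraries, p = 0.03125, the smallest that 6 libraries can give). Member peaks were also narrower, with a mean difference of -89.6 bp (exact sign-flip permutation p = 0.03125). Much of the rank difference moved with width. Between regions of like width it was 7.44 ± 7.01 points (SD over 6 libraries) under 300 bp, with 5 of 6 libraries above 0. It was 5.26 ± 10.5 from 300 to 400 bp, with 4 of 6 above 0, and 10.3 ± 6.37 and 10.4 ± 4.59 from 400 to 600 bp and beyond, with 6 of 6 above 0 in both.

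**Figure D1:**
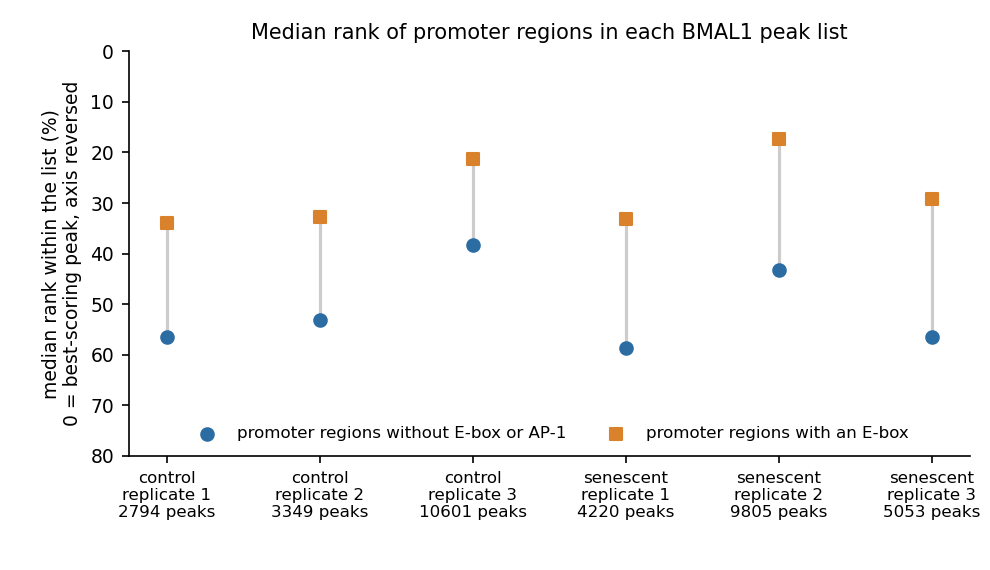
Median rank of promoter regions in each of the 6 peak lists, in percent of the list with the best score at the top. Circles are promoter regions without E-box or AP-1 and squares are promoter regions with an E-box, and in every library the circles lie 16.9 to 27.4 percentage points below the squares.

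Between groups, the median rank of members averaged 49.3% ± 9.73 in control and 52.8% ± 8.40 in senescent libraries, and the difference of 3.47 points was within the spread of the libraries (exact permutation p = 0.6). It was -2.89 without control replicate 3. The distance between members and E-box promoters was 20.0 ± 2.88 points in control and 26.3 ± 0.964 points in senescent libraries. These did not overlap, and their exact permutation p of 0.1 was the smallest possible. Among promoter regions in the best 10% of each list, members made up 26.8% ± 8.91 in control and 17.98% ± 5.57 in senescent libraries, and at ranks from 75 to 100% they made up 61.2% ± 11.05 and 66.3% ± 8.70. Both comparisons overlapped between the groups (exact permutation p = 0.3 and 0.6).

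Regions confined by their calls to a group were fewer among the members than among all regions called in at least 2 libraries. A region was counted as senescent-only when called in at least 2 senescent and 0 control libraries, and as control-only in the mirrored case. Senescent-only members numbered 275 (15.97%) beside 21.3% of all regions, control-only members 91 (5.28%) beside 13.2%, and members called in all 6 libraries 134 (7.78%) beside 14.8%. Promoter regions with an E-box had 21.4%, 0.461% and 31.2% in the same order. Because these calls also chose the members, the shares are given as a description. The counts moved with the longest lists: senescent-only members numbered 593 without control replicate 3 and 79 without senescent replicate 2, and control-only members numbered 21 and 196. Lists of equal length left 111 senescent-only members and 115 control-only members.

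To find what the members shared, 28 patterns were searched on both strands within 100 bp of the centre of each member peak, and beside it, 200 to 400 bp to each side. The panel held the 9 single-base variants of the E-box that are distinct on either strand, their union, a rearranged E-box (ACCGGT) with the same bases, and 17 other motifs. Matches of different patterns can overlap, as the C3T and other variants can in a short stretch. In the centre window 15 patterns were more frequent than beside it in 6 of 6 libraries and 3 were less frequent in 6 of 6 (exact sign-flip permutation p = 0.03125 each, 0.0486 after Benjamini-Hochberg adjustment over 28). Since p cannot go lower with 6 libraries, the adjusted value rests on how many patterns reached the limit. Of the same panel, 46.4% were more frequent at the centre in all libraries at promoter regions with an E-box. The libraries share regions and are not independent draws of sequence.

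The E-box variants did not move together. Most frequent was CGCGTG (A2G), in 20.1% ± 5.17 of member peaks at the centre (SD, n = 6) and 11.1% beside it. AACGTG (C1A) was held by 11.6% ± 3.00 and 3.66%, the largest ratio of the 9 variants at 3.18. The variant CTCGTG (A2T) was held by 12.4% ± 2.23 and 6.67%, and CATGTG (C3T) by 8.43% ± 1.51 and 5.10%. Smaller gains of 2.33 and 2.49 percentage points were measured for GACGTG (C1G) and for CCCGTG (A2C) (around the start site, 9.36% and 12.5% of members and 5.29% and 8.34% of all promoters). Among CpG-rich promoters, GACGTG was in 10.2% of members and 7.70% of all, and CCCGTG in 13.8% and 12.4%. Other patterns were less frequent at the centre. CAGGTG (C3G) was held by 5.95% ± 0.899 at the centre and 12.0% beside it. CAAGTG (C3A) was held by 6.603% ± 1.003 and 8.51%, and the rearranged ACCGGT by 1.84% ± 0.607 and 2.95%. Around the start site, CAAGTG was in 5.52% of members and 7.91% of all promoters, and the rearranged E-box in 2.15% and 1.89%. Among the CpG-rich the values were 4.91% and 4.76% for CAAGTG, so its lower share was not seen there, and 2.35% and 2.82% for the rearranged E-box. With flanking windows farther out, from 500 bp on, the differences for C3T (0.901 points) and for ACCGGT (-0.0818) no longer passed, with adjusted exact sign-flip p = 0.28 and 0.969.

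**Figure D2:**
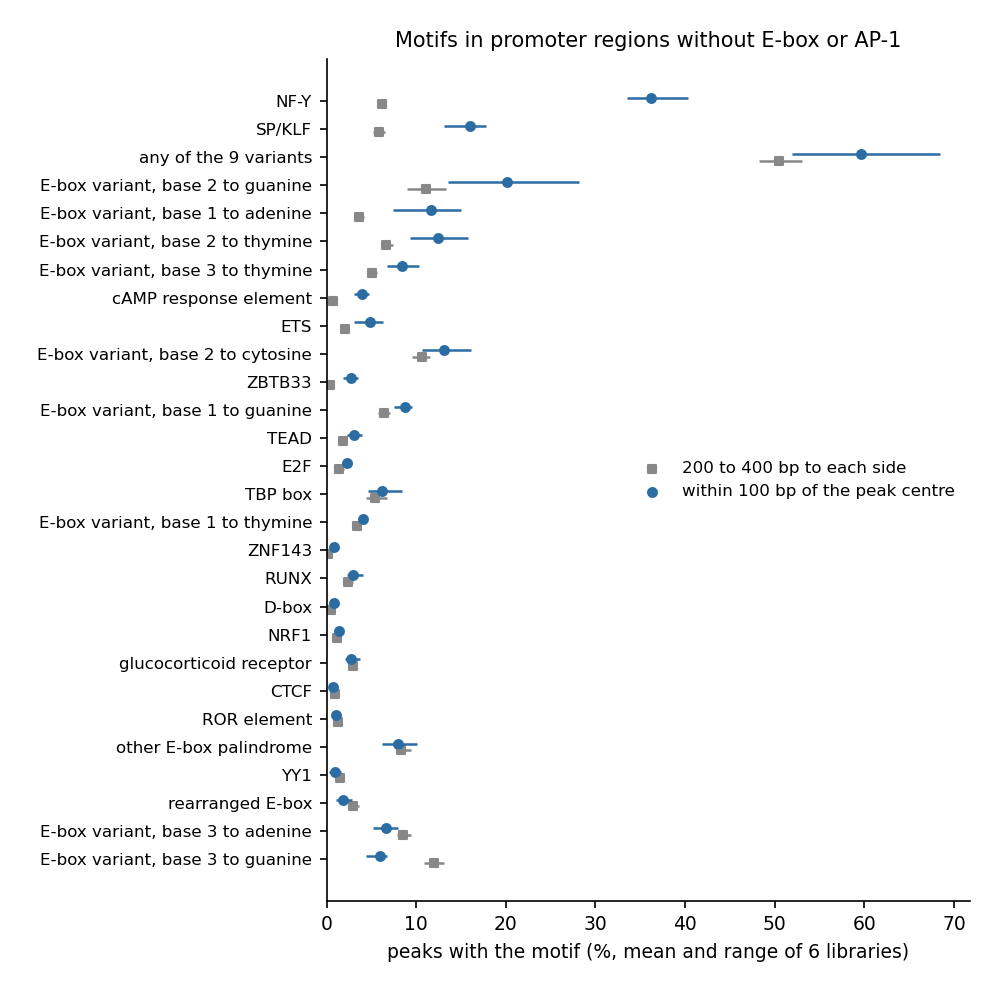
Share of member peaks that hold each of 28 motifs, as the mean (symbol) and range (line) of 6 libraries. Circles are windows within 100 bp of the peak centre and squares are windows 200 to 400 bp to each side, and NF-Y stands farthest from its flank (36.2% against 6.15%) while the base 3 to guanine variant lies below it (5.95% against 12.0%).

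Sequence composition near start sites differs from that of flanking DNA, so the same windows were also placed on start sites. Within 100 bp of the start site, AACGTG was held by 6.33% of members and by 3.13% of 21851 protein-coding promoters, or, among CpG-rich promoters alone, by 6.78% and 3.50%. The variant CTCGTG was held by 10.2% and 5.15%, and by 10.9% and 6.84% among the CpG-rich. CGCGTG was held by 18.4% and 9.81%, but by 21.04% and 18.3% among the CpG-rich, so that most of its difference went with CpG content. CATGTG was held by 4.18% of members and 6.56% of all promoters, and by 3.32% and 3.39% among the CpG-rich, so its level at members was near that of other promoters. CAGGTG was held by 6.33% of members and 13.7% of all promoters, and by 6.09% and 10.7% among the CpG-rich.

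NF-Y was the most frequent motif of another factor. CCAAT followed by C or G and then by A or G was held by 37.5%, 40.4% and 35.5% of member peaks in the control libraries and by 33.8%, 33.5% and 36.7% in the senescent libraries, against 5.92% to 6.56% beside the centre. The gain of 30.1 percentage points was present in 6 of 6 libraries. In promoter regions with an E-box the share at the centre was 20.8% to 27.1%, so that members stood 13.1 points higher, again in 6 of 6 libraries (exact sign-flip permutation p = 0.03125, adjusted p = 0.0795). Around the start site itself, 29.5% of members and 14.5% of all promoters held it, or 29.6% and 17.7% among the CpG-rich. GC boxes of SP/KLF factors (GGGGCGGGG) were held by 16.04% ± 1.63 of member peaks and 5.80% beside them. They did not set members apart from other CpG-rich promoters, with 22.2% and 22.04% around the start site (20.05% of all members and 12.6% of all promoters).

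Rarer motifs were also centred. The cAMP response element TGACGTCA, bound by CREB and ATF proteins, was held by 3.99% ± 0.565 of member peaks and 0.664% beside them, and TCTCGCGA, bound by ZBTB33, by 2.73% ± 0.543 and 0.364%. The ETS motif CCGGAAGT was held by 4.82% ± 1.34 and 2.04%. In the start-site windows the cAMP response element was in 4.24% of members and 2.06% of all promoters, or in 4.84% and 3.30% among the CpG-rich. TCTCGCGA was in 2.96% and 1.12%, or 3.25% and 2.11% among the CpG-rich, and the ETS motif in 8.02% and 4.48%, or 8.79% and 7.92%. The differences were thus smaller among CpG-rich promoters. For the D-box TTATGTAA and the ROR element TAGGTCA, which belong to the secondary loops of the clock, the shares at the centre were 0.837% ± 0.33 and 0.985% ± 0.254, and the difference from the flank took both signs among the libraries (4 and 2 of 6 higher). The muscle-type letters CAGCTG, another palindromic E-box, were held by 7.92% ± 1.65 and 8.30%. Around the start site these 3 were less frequent in members than in all promoters, at 0.116% and 0.426% for the D-box, 0.9297% and 1.31% for the ROR element and 9.12% and 12.3% for CAGCTG. Among the CpG-rich, CAGCTG alone stayed lower, at 8.65% and 10.2%. There the D-box was at 0.138% and 0.138% and the ROR element at 0.761% and 0.662%. Compared with E-box promoters, 8 of the 28 patterns were more frequent at members in all 6 libraries and 3 were less frequent, the latter being CAGGTG, the rearranged E-box and the ROR element (smallest adjusted exact sign-flip p = 0.0795).

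**Figure D3:**
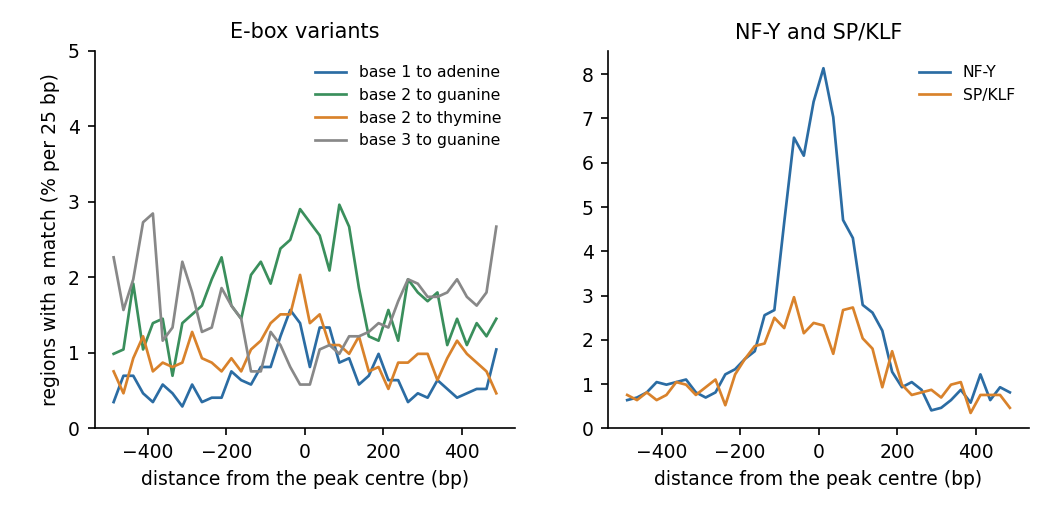
Members with a match in each 25 bp step from the peak centre, in percent of 1721 nuclear members. On the left are the E-box variants C1A, A2G, A2T and C3G (C3T is not drawn). On the right are NF-Y and SP/KLF, and the vertical scales differ. NF-Y is highest in the 25 bp step after the centre (8.13%), and among the steps within 150 bp the base 3 to guanine variant is lowest in those on either side of it (0.581%).

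When the best-ranked peak of each region was taken as its centre, 618 of the 1722 members (35.9%, Wilson interval 33.7 to 38.2) held at least 1 of C1A, A2G, A2T and C3T, the 4 variants with the largest gains, which were grouped after their values were seen. Promoter regions with an E-box held them in 36.4% (33.6 to 39.3), and any of the 9 variants in 59.9% against 56.2% of members. At the centre of the peaks, A2G was in 18.3% of E-box promoter peaks against 20.1% of member peaks and C3T in 9.22% against 8.43%. C1A was in 8.56% against 11.6% and A2T in 9.05% against 12.4%. None of these 4 differences passed (adjusted exact sign-flip permutation p = 0.109 to 0.418). No pattern of the panel passed in this comparison (smallest adjusted exact sign-flip p = 0.0795), so this does not show that the shares were alike. NF-Y was held by 587 (34.1%), both by 184 (10.7%), and neither by 701 (40.7%). Of those with neither, 583 also lacked the SP/KLF motif, so that 33.9% of members held none of these. Wilson intervals here and below cover counting error only.

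The share with 1 of the 4 variants was higher for regions called in more libraries, apart from a small step down between 4 and 5. It was 28.0% (25.02 to 31.1) of the 837 members called in 2 libraries, 38.8% (34.3 to 43.5) at 3, 45.5% (38.9 to 52.2) at 4, 43.5% (34.8 to 52.6) at 5 and 54.5% (46.0 to 62.7) of the 134 called in all 6. NF-Y showed no such order. It was at 30.6% (27.6 to 33.8) at 2 libraries, 38.8% (34.3 to 43.5) at 3 and 35.5% (29.4 to 42.2) at 4. At 5 libraries it was 42.6% (34.0 to 51.7), and at 6 it was 31.3% (24.1 to 39.6). By rank, too, the variant share was ordered and that of NF-Y was not. Among members in the best 10% of a list, 40.0% to 78.3% held 1 of the 4 variants (mean 65.0% ± 13.3 over 6 libraries), and among those at ranks from 75 to 100% 27.5% to 37.8% did (31.9% ± 4.51). The corresponding means for NF-Y were 34.2% ± 6.52 and 34.0% ± 6.98. Control replicate 3, the longest list, gave the lowest share of variants in every rank class from the best to the weakest.

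**Figure D4:**
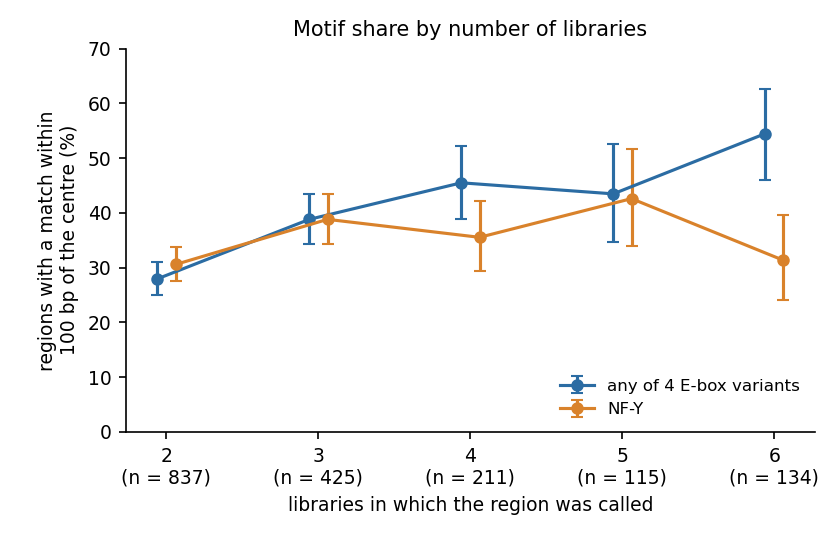
Share of members with a match within 100 bp of the centre, by the number of libraries that called the region, with 95% Wilson intervals. The share with 1 of 4 E-box variants goes from 28.0% at 2 libraries to 54.5% at 6, and NF-Y is at 30.6% and 31.3%. Between these ends NF-Y is higher, at 38.8%, 35.5% and 42.6% for 3, 4 and 5 libraries.

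Paired variants were also counted, since tandem E-boxes are a known arrangement at clock genes. Matches to the 4 variants stood 12 bp apart, start to start, in 12 members within the centre window and in 3.5 on average beside it. Every other spacing from 7 to 30 bp was found in at most 8 members at the centre (mean 3.43). Beside the centre, 12 bp was also the most frequent spacing, together with 30 bp (3.5 each). The 30 bp spacing was found in 5 members at the centre. At 22 bp there were 8 at the centre and 1 beside it, so the gain at the centre was not particular to 12 bp. The 12 members, which include Ddx50, the transcriptional repressor gene Hes1, Zfp457 and Zfp74, were singled out after the spacings were seen.

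Motif shares per library were then compared between groups. Of the 28 patterns, 4 (the C1G and A2C variants and the ZBTB33 motif higher in senescent libraries, the cAMP response element lower) did not overlap between the groups, beside 64.3% of the panel when all peaks of each library were used. The largest of the 4 was CCCGTG, with 11.3% ± 0.788 in control and 15.0% ± 1.26 in senescent libraries. All had an exact permutation p of 0.1, and the smallest adjusted p was 0.467, so the differences were not separable from the spread at this size. For CGCGTG the values were 21.3%, 16.6% and 13.5% in control and 28.1%, 18.2% and 23.0% in senescent libraries, which overlap (exact permutation p = 0.2).

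Senescent-only and control-only members differed in what they held. Of the 275 senescent-only members, 134 (48.7%, Wilson interval 42.9 to 54.6) held 1 of the 4 variants, and of the 91 control-only members 14 (15.4%, 9.39 to 24.2) did. NF-Y went the other way with overlapping intervals, 28.4% (23.4 to 34.0) and 38.5% (29.1 to 48.7). The calls chose these groups, so no test is attached. The share with a variant was 63.96% and 21.7% with lists of equal length, and 58.2% and 8.82% when the longest list of each group was left out, an alternative chosen after seeing the data.

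The best-ranked members were clock genes. Per2, a repressor of BMAL1 and CLOCK, had one of the best peaks of every list. Its rank was 3, 3 and 3 in the control and 4, 3 and 4 in the senescent libraries, and its score, the −log10 q-value of the peak, was 690, 743 and 1016 and then 1079, 1244 and 1056. Its merged region, chr1:91457900-91460335, was 2436 bp wide and held 4 matches to the 4 variants and no CACGTG. Cry2, which represses the same pair, ranked 17, 20 and 21 in control and 21, 17 and 18 in senescent libraries, and Per3 ranked 20, 25 and 23 and then 18, 15 and 16. These 3 genes were within the best 1% of every list (mean rank 0.0716% for Per2, 0.405% for Cry2 and 0.429% for Per3).

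Hlf, a PAR bZIP transcription factor of the clock output, was called at rank 769 and 1806 in control replicates 1 and 3, was not called in replicate 2, and stood at 75.5, 106 and 60 in the senescent libraries, so its ranks did not overlap between groups. Usp2, a deubiquitinase with rhythmic expression, was called in the 3 senescent libraries alone at rank 406, 708.5 and 1092, and Csnk1e, a kinase of the PER proteins, in the same 3 at 1142, 1082.5 and 3187. Usp2 was also among the genes with a separate E-box promoter region. Arntl, which encodes BMAL1 itself, was called weakly, in control replicate 3 at rank 9917.5 of 10601 and in senescent replicate 2 at 3667.5 of 9805. These 7 genes are 26.9% of the 26 genes of the clock list, and 9 (34.6%), among them Dbp, Nr1d1, Cry1 and Ciart, had an E-box promoter region. Of all 21840 annotated protein-coding genes, 8.48% had a member region and 5.46% an E-box promoter region. The lists are described by counts alone.

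The remaining best-ranked members called in all 6 libraries were not clock genes. Txnip, which inhibits thioredoxin and restrains glucose uptake, ranked 185, 160 and 116 in control and 161.5, 75 and 148 in senescent libraries, and its region held 4 of the variant matches and 2 NF-Y matches. Mapk6, an atypical MAP kinase, had a region at rank 166.5, 266 and 152 and then 64.5, 108 and 107, where control replicate 3 lay among the senescent libraries once ranks were taken as a share of the list. A second Mapk6 region, with its midpoint in an exon, was called in senescent replicates 1 and 2 alone. The others were Ccdc85b, Fam76a, the RNA helicase gene Ddx50, the complex I subunit gene Ndufs7 and Lox, which encodes the collagen cross-linking enzyme lysyl oxidase. Their mean ranks were between 2.61% and 4.02%. Ndufs7 held none of the 4 variants and no NF-Y match.

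Beside Usp2, the best senescent-only members were at Sumo2, a ubiquitin-like modifier, at Engase, at the glucose transporter gene Slc2a6, and at Mapk6. Sumo2 ranked 536.5, 445 and 1057 and held 3 variant matches and 1 NF-Y match. The best control-only members were at Hsd11b1, an enzyme that regenerates active glucocorticoid, at Hist1h3f, at the kinase gene Nlk, at Vim and at the ribosomal protein gene Rpl23a. Hist1h3f was called in 3 control libraries at rank 797, 846 and 2141.5, and the other 4 in replicates 2 and 3 alone. Vim had ranks 1690 and 673. Of these 5 regions, Nlk alone held any of the 4 variants.

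Genes of the translation machinery were common among the members, and they were also common among promoter regions with an E-box. Of all protein-coding genes, 8.48% had a member region and 5.46% an E-box promoter region. CpG content was not matched in these counts, and 84.0% of members but 49.8% of all promoters were CpG-rich. Of 80 cytosolic ribosomal protein genes, 34 (42.5%) had a member region and 14 (17.5%) an E-box promoter region. Rps29 was the best-ranked of them, at 1552, 964 and 523 in control and 1427, 846.5 and 612.5 in senescent libraries, and it held the cAMP response element 15.5 bp from the peak centre. Of 37 aminoacyl-tRNA synthetase genes, 10 (27.0%) had a member region, among them Mars2, Wars2 and Eprs, and 4 (10.8%) an E-box promoter region. For translation initiation and elongation the counts were 13 and 14 of 68 (19.1% and 20.6%). Splicing genes had a member region in 24 of 81 (29.6%) and an E-box promoter region in 10 (12.3%), and the former include Hnrnpl, Hnrnpr, Hnrnpab and 6 serine/arginine-rich splicing factor genes. The median of the mean rank was 55.6% for ribosomal protein regions and 53.7% for splicing regions.

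Replication-dependent histone genes had a member region in 36 of 67 (53.7%) and an E-box promoter region in 0 of 67, which allows a share of up to 4.48%. Start sites in histone clusters lie close together, and 27 regions served the 36 genes. Among these regions 7 were control-only and 0 of 27 senescent-only (up to 11.1%), whereas among all members senescent-only regions outnumbered control-only ones. Hist1h2be was called in all control libraries at rank 812.5, 733.5 and 692.5, and in senescent replicates 2 and 3 at 6610 and 1803. Histone genes are near-identical copies, and reads that fit several of them can be assigned only where a mate is unique.

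Lists of AP-1 subunit, p53 target, glucocorticoid-induced, secreted-factor and collagen genes were also counted, and expression was not examined here. Of all protein-coding genes, 8.48% had a member region and 5.46% an E-box promoter region. Of 11 AP-1 subunit genes, 6 (Fos, Fosb, Jun, Junb, Jund and Atf3) had 9 member regions and 0 had an E-box promoter region, which allows up to 27.3%. Junb ranked 1545.5 in control replicate 3 alone of its group and 783, 1003 and 936 in the senescent libraries. Control replicate 3 lay among the senescent libraries once these ranks were taken as a share of the list. Of 24 p53 target genes, 7 (29.2%) had a member region (Btg2, Ccng1, Cdkn1a, Ddb2, Gadd45a, Plk2 and Rrm2b) and 7 others (29.2%) an E-box promoter region. Of 14 glucocorticoid-induced genes, 5 (35.7%) had a member region and 5 (35.7%) an E-box promoter region, with Mt1, a metallothionein, among both. The Mt1 member ranked 1904.5 and 927 in control replicates 2 and 3 and 1714.5, 911.5 and 803 in the senescent libraries. Of 67 genes of secreted cytokines and proteases of senescence, Vegfa alone (1.49%, below all genes) had a member region, called in senescent replicates 1 and 2. Collagen genes had 4 of 45 (8.89%, near the share of all genes), with Col1a1 and Col1a2 called in the longest list of each group and in no other.

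Other lists stood above all genes (8.48%) but below the lists of the translation machinery. They were oxidative phosphorylation with 13 of 86 (15.1%), mitochondrial ribosomal proteins with 11 of 78 (14.1%) and chaperones with 13 of 84 (15.5%). Cell cycle and replication licensing had 11 of 70 (15.7%) and DNA repair 7 of 57 (12.3%). RNA polymerase, Mediator and general transcription factors had 16 of 97 (16.5%). E-box promoter regions were at 4.65% (oxidative phosphorylation) to 16.5% (RNA polymerase list) of these lists, beside 5.46% of all genes. Near all genes were the proteasome with 4 of 50 (8%) and Zfp zinc fingers with 28 of 394 (7.11%). Autophagy genes (2 of 31, against 5 with an E-box promoter region) and genes of the lysosome and V-ATPase (3 of 45, against 8) had more E-box promoter regions than member regions. At Hsp90b1, the best-ranked chaperone after Dnajb5, the region held 6 NF-Y matches and was called in 5 libraries. At Rad51c, a DNA repair gene, it held 3 variant matches and a cAMP response element and was called in 5. Ctsl, Atp6v0a1 and Atp6v1a were the lysosomal members.

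**Figure D5:**
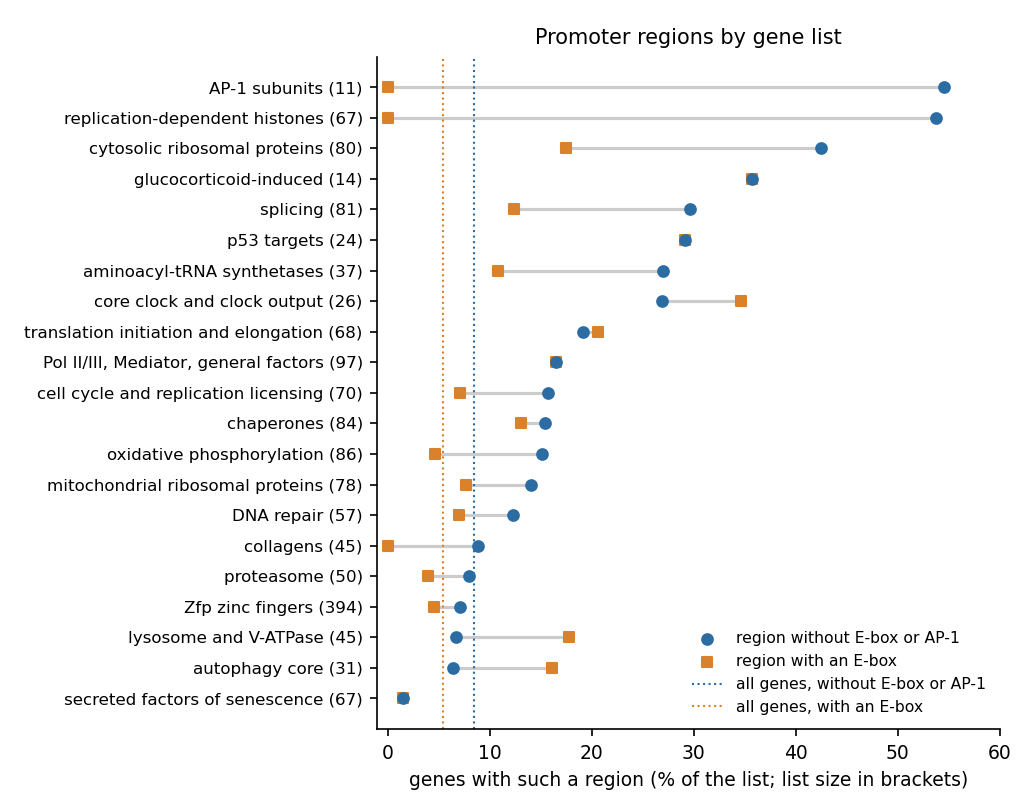
Genes of each list with a member region (circles) and with an E-box promoter region (squares), in percent of the list, with the list size in brackets and dotted lines at the values of all protein-coding genes (8.48% and 5.46%). AP-1 subunits and replication-dependent histones stand at 54.5% and 53.7% for member regions and at 0 for E-box promoter regions.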

How the data were processed

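BMAL1-ChIP-seq libraries of control and senescent MAFs were prepared by tagmentation-assisted fragmentation ChIP. The authors mapped paired reads to mm10 with the Burrows-Wheeler Aligner, discarded pairs in which neither end mapped uniquely, dropped PCR duplicates (Picard), and called peaks per library with MACS2 at an FDR of 1% or less, without pooling replicates. The MACS2 version and the use of the input as its control are not given in the sources used here. The score the authors deposited was read as the −log10 of the q-value of a peak, since the smallest score of each list lay between 2.02 and 2.12. It is not normalized between libraries and was used within a list alone, with tied scores sharing a mean rank. The lists give no summits, so the midpoint of a peak was its centre.

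The members, gene lists and motifs were chosen with earlier results of these data known. Start sites, exons and introns came from protein-coding transcripts of GENCODE M21 (basic), and sequence from GRCm38. Promoter sequence windows of named members were read from the genome. A withheld sequence is not reported here. Named were the 10 members of best mean rank that every library called, the 5 best senescent-only and 5 best control-only members, all members at clock genes, and up to 3 of each other list. Group differences were tested by exact two-sided permutation over 20 arrangements, and differences within libraries by exact sign-flip permutation over 64. Same-numbered replicates did not deviate together (correlations of 0.0774, -0.135 and -0.112 over region calls), so libraries were not paired. The largest correlation, 0.268, was between control replicate 3 and senescent replicate 2, the longest list of each group. Functions were tested on simulated peaks. Python 3.11.15, numpy and pysam were used. Alternatives were another overlap, stricter and equal lists, 3 or more libraries, a 500 bp promoter distance, autosomes and X, other motif windows, and leaving out each library.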

Additional observations from a re-analysis of the deposited data

How the results depend on the processing

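The sign of the rank difference between members and E-box promoters was kept under each alternative run, and it was 20.3 to 23.3 points with 6 libraries. Leaving out each library in turn gave 22.0 to 23.8 points, with no p under 0.0625 possible. Counts of members depended most on the lists: 703 members (96 senescent-only, 48 control-only, 57 in all libraries) with a stricter score threshold, 616 (111 senescent-only, 78 in all) with equal peak numbers, and 885 (65 and 15) when called in 3 or more libraries. Leaving out 1 library gave 1066 to 1697 members, 79 to 593 senescent-only, 21 to 196 control-only and 135 to 185 in all remaining libraries. Over the same 6 fits, the share of members among promoter regions, senescent minus control, ranged from -6.64 to 1.84 points (-8.33 with equal peak numbers), reversing without control replicate 3 (1.84) and without senescent replicate 1 (1.84), and the rank difference between groups from -2.89 to 7.18, reversing without control replicate 3 (-2.89). Without the longest list of each group there were 631 members and 34 control-only members, and the rank difference between groups was -3.57. Paired by replicate number (replicate block), these differences were -1.90 (exact permutation p = 1) and 3.47 (p = 0.75), where 3 pairs allow no p below 0.25.

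Patterns more frequent at the centre in every library numbered 10 to 17 with 6 libraries and 15 to 18 without 1 of them. Patterns less frequent in every library numbered 5 with the stricter threshold, with 3 or more libraries and without the longest lists, and 3 to 5 without 1 library. With fewer patterns at the smallest possible p, no adjusted p passed 0.05 under the stricter threshold, equal peak numbers or 50 bp windows, which follows from the adjustment. Patterns whose groups did not overlap numbered 10 with equal peak numbers, 8 with 3 or more libraries, 5 to 15 without 1 library and 16 without the longest lists, and 15 differed the same way in all 3 pairs of the replicate block. The cause was not tested. Of 77 named regions, 40 to 77 stayed members. Depth is unknown, and no value here separates depth or enrichment from binding.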
